A study of Mus musculus with 12 samples.

Results

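The 8 genes described here encode the nuclear receptors that read retinoic acid and the proteins that carry it inside the cell: the retinoic acid receptors Rara, Rarb and Rarg, the retinoid X receptors Rxra, Rxrb and Rxrg, and the cellular retinoic acid binding proteins Crabp1 and Crabp2. They were chosen by name from the 17901 genes of the deposited table, with earlier results of these data known. All 8 passed the filter on low values, which kept 15750 genes. Their levels were measured by RNA sequencing in TT2, a mouse embryonic stem (ES) cell line, in 4 groups of 3 libraries. Wild-type cells (WT) and cells with a double knockout (DKO) of Rlf and Zfp292 were each grown in ES medium with LIF, which the series calls Serum/LIF, or for 72 hours in the same medium without LIF and with 5 µM retinoic acid (RA). All groups share the TT2 background and the gelatin-coated dishes. The RA groups differ from the serum/LIF groups in 2 ways, the added RA and the missing LIF, and the effects of these cannot be told apart. The series title and labels do not say whether the DKO libraries come from 1 clone or from several. The 3 libraries of a group are called biological replicates in the labels, with no word on separate cultures, so the p-values measure the spread between these libraries.

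Retinoic acid enters the cell, is bound by CRABP proteins and reaches the nucleus, where it binds a RAR that sits on DNA as a heterodimer with an RXR. Without ligand the pair recruits corepressors, and with ligand it releases them for coactivators and transcription of the bound gene rises. The DNA elements it binds are direct repeats of a hexamer. ES cells exposed to retinoic acid leave the pluripotent state, and several genes of the pathway, Rarb among them, are themselves targets of the receptor.

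Rarb is the member for which the RefSeq promoter table (GRCm38.p6, the same assembly as the mm10 build of the deposited table) held such an element. The search covered direct repeats of the hexamer AGGTCA and of its variants, namely the form AGTTCA, the form GGGTCA and the form GGTTCA, in any pairing and on both strands, with spacers of 1 base (DR1), 2 bases (DR2) or 5 bases (DR5). The table held 14 windows, each from 250 bases before to 50 bases after a start site, for 7 of the 8 genes. It held none for Crabp2, whose promoter was therefore not searched. Of the 14 windows, 1 held a repeat, a DR5 at the start site of the Rarb transcript that the deposited table lists. It is printed below because the gene behind it gained more than any other of the 8 after RA. The 250 bases before that start site, at chr14:16575477-16575726 on the minus strand, read 5′ to 3′ on the strand of the gene, with the DR5 in capitals:

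Rarb, upstream of the start site: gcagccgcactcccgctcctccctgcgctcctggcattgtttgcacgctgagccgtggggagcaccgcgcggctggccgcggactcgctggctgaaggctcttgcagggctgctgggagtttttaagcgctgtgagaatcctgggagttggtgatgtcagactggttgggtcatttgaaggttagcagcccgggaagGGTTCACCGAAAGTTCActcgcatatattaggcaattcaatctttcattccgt

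The capitals run from 53 to 37 bases before the start site and hold 2 of the hexamers searched and a spacer of 5 bases. Of the 32851 windows in the whole promoter table, 0.0974% held a DR5 by this search, 0.222% a DR1 and 0.268% a DR2. The 32 windows with a DR5 belonged to 31 genes, of which 9 passed the filter here. Among those 9, 5 were higher and 3 lower after RA in WT, and 3 were higher and 2 lower in DKO, where 80.6% and 78.3% of all genes tested were called. Blvrb and Cfap45 fell in both genotypes (−0.89 and −2.29 in WT, −0.92 and −1.72 in DKO), and Gm14133 fell in WT (−3.99). Besides Rarb those that rose included Cyp26a1, the enzyme that degrades retinoic acid, whose log2 fold change after RA was 8.08 ± 0.09 (SE) in WT and 8.47 ± 0.09 in DKO. A match in these letters is a description of the sequence and was not tested for binding.

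The libraries held 30869766 to 40236799 reads in genes. The labels were checked on the knocked-out genes: Rlf had 10999 reads over the 3 WT libraries in serum/LIF and 8426 after RA, against 6 and 1 in DKO, and Zfp292 had 14965 and 10237 reads in WT and 0 in both DKO groups. The labelled cell type was checked on 12 genes of pluripotent ES cells, none of which was at 0 in any group, with a summed level of 180977 to 186146 in the WT serum/LIF libraries and 6433 to 6955 in the WT RA libraries. WT RA replicate 2 stood apart: ribosomal RNA names made up 41.7% of its deposited repeat values, against 4.14 to 7.28% in the other 11 libraries. Without it, the calls of the 8 genes were kept in the 3 contrasts it enters, except that of Rxrb between the genotypes after RA, and the other genes named below were not refitted without it. The deposited values of the RA libraries sum to a lower total than those of the serum/LIF libraries. Setting all totals equal moved the median log2 fold change of all genes from 0.04 to 0.30 in WT and from 0.04 to 0.27 in DKO for RA against serum/LIF. The calls then split into 8155 higher and 4754 lower in WT, in place of 6515 and 6180, and into 7884 and 4622 in DKO, in place of 6326 and 6014. All 8 genes kept their direction and their call under that scaling in both comparisons.

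After RA the cells of both genotypes held a different set of receptor transcripts: Rarb and Crabp2 rose most, and Rarg and Rxrg fell. All 8 genes passed the test for RA against serum/LIF in WT, 6 of them higher and 2 lower, where 80.6% of all genes tested were called (41.4% higher, 39.2% lower). In DKO, too, all 8 passed, 6 higher and 2 lower, against 78.3% of all genes (40.2% higher, 38.2% lower). With most of the transcriptome called, the count says little about these genes and the sizes of their changes say more. The median absolute log2 change over the 8 genes was 1.87 in WT and 1.18 in DKO, against 0.76 and 0.68 over all genes. The genotypes differed most clearly in Rarg and Crabp1: after RA, DKO cells held 2.33 times the WT level of Rarg and 6.29-fold less Crabp1.

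**Figure D1:**
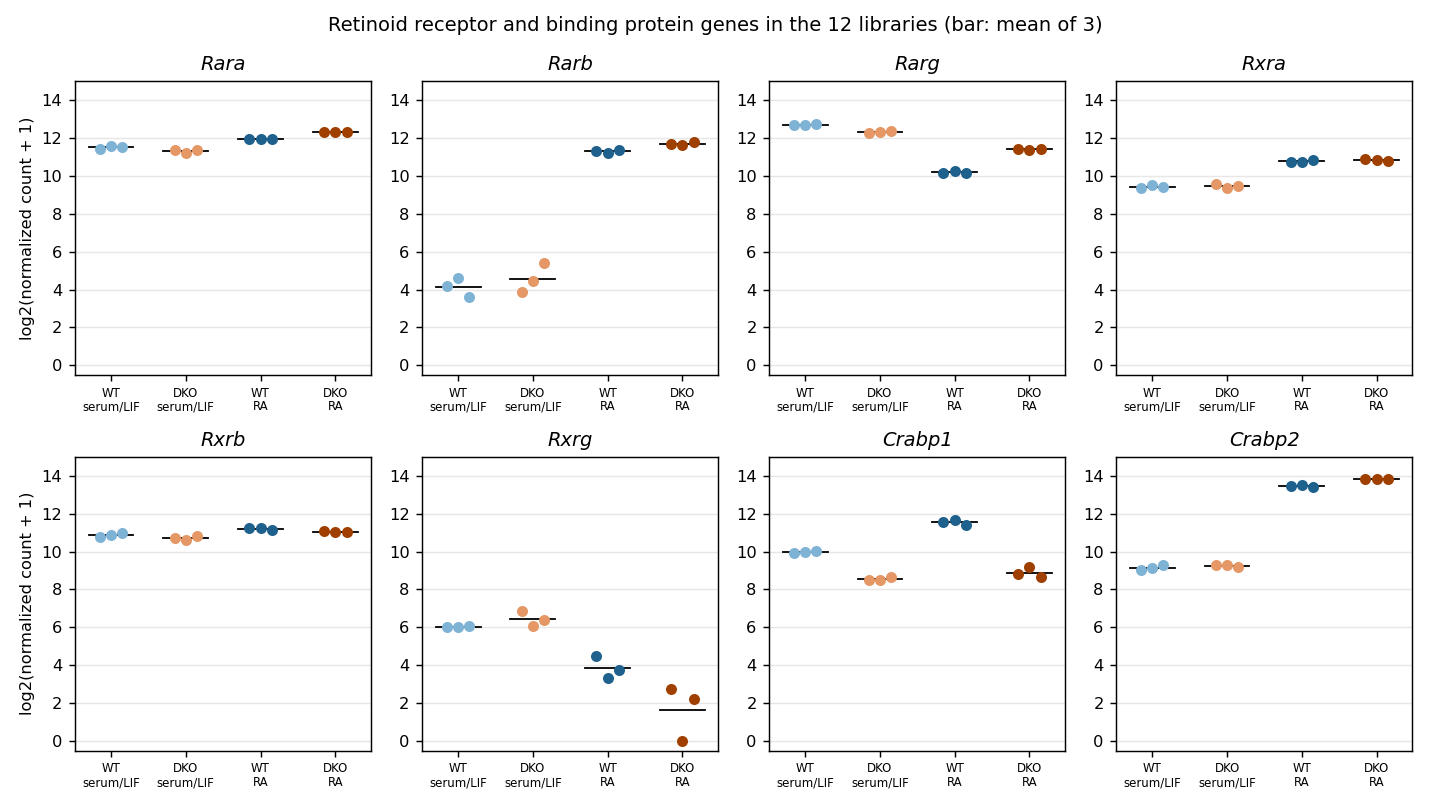
Level of each gene in the 12 libraries, as log2(normalized count + 1) on the y axis, by genotype and culture on the x axis; points are libraries and bars are means of 3. Rarb and Crabp2 sit far higher after RA, Rarg and Rxrg lower, and Crabp1 is lower in DKO than in WT in both cultures.

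Among the retinoic acid receptors, Rarb (chr14:16430839-16575476, minus strand) went from the lowest level of the 8 genes to the level of an abundant receptor gene. Its normalized counts in WT were 17.2, 23.6 and 11.2 in serum/LIF and 2553, 2383 and 2625 after RA. In DKO they were 13.8, 21.1 and 40.6 in serum/LIF and 3257, 3179 and 3551 after RA. No serum/LIF library came near an RA library in either genotype. The mean rose 145-fold in WT (log2 fold change 7.16 ± 0.33, SE, adjusted p = 6.48e-10, limma with Benjamini-Hochberg adjustment) and 132-fold in DKO (7.12 ± 0.33, adjusted p = 7.67e-10). By reads, 8136 over the WT RA libraries against 52 in serum/LIF, the ratio after scaling was 148, with an exact 95% interval of 113 to 198 that covers counting error only. Of all genes tested, 99.8% had a lower log2 fold change in WT.

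The interaction, which is the RA response of DKO less that of WT, did not pass for Rarb (−0.04 ± 0.46, adjusted p = 0.965, limma). The 3 DKO libraries after RA all lay above the 3 WT libraries, with a mean 1.32 times as high. In the limma fit over 12 libraries, which gives each gene 1 spread for all groups, that difference did not pass (log2 fold change 0.40 ± 0.33, adjusted p = 0.359). It passed with limma on the 6 RA libraries alone (adjusted p = 6.88e-07), with edgeR on the reads (6.33e-05) and with DESeq2 (2.39e-08). The authors' deposited table also called it (0.40 ± 0.07, adjusted p = 5.61e-08). In serum/LIF the genotypes overlapped, with 52 reads in all in WT and 66 in DKO, and the difference did not pass (0.44 ± 0.33, adjusted p = 0.346). Without DKO serum/LIF replicate 1 it did (0.78, adjusted p = 0.0450), and without replicate 3 it was 0.04 (adjusted p = 0.926).

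In the GENCODE annotation Rarb shares 4624 bases with Top2b, a DNA topoisomerase gene on the opposite strand, and 4859 bases with the antisense gene Gm48162, which is not in the deposited table. By the coordinates used to find nearest neighbours, however, Top2b lies 51 bases from Rarb with no shared bases, so the overlap depends on the annotation. Whether the reads were counted by strand is unknown here. If the counting followed the GENCODE spans without regard to strand, reads of these genes in the shared bases cannot be told apart. The mean level of Top2b was 2424 in WT and 2745 in DKO cells in serum/LIF, and 6042 and 5578 after RA. In the serum/LIF libraries, where the Top2b means were 2424 and 2745, Rarb read 11.2 to 40.6. The part of Top2b reads in the Rarb values after RA was not tested.

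Rarg (chr15:102234938-102257522, minus strand), the receptor that led in ES cells, moved the other way. Its normalized counts in serum/LIF were 6653, 6572 and 6754 in WT and 4891, 5004 and 5261 in DKO. After RA they were 1132, 1205 and 1155 in WT and 2740, 2671 and 2711 in DKO. None of the 4 groups overlapped another, so DKO was below WT before RA and above it afterwards. The fall with RA was 5.72-fold in WT (log2 fold change −2.52 ± 0.04, adjusted p = 2.78e-24, limma) and 1.87-fold in DKO (−0.90 ± 0.04). The genotype effect was −0.40 ± 0.04 in serum/LIF (adjusted p = 1.08e-07) and 1.22 ± 0.04 after RA (adjusted p = 3.02e-16). Its interaction of 1.62 ± 0.06 (adjusted p = 7.50e-15, limma) was the largest positive one of the 8 genes, and 97.8% of all genes tested had a lower one.

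Pluripotency genes moved the same way as Rarg. All 12 genes of the pluripotent ES cell list were higher in DKO than in WT after RA, with summed levels of 12626 to 13479 against 6433 to 6955, and 6 of the 12 were lower in DKO cells in serum/LIF, with 160095 to 163562 against 180977 to 186146. Among all genes tested, 22.0% were called higher in DKO after RA and 15.4% lower in serum/LIF. The part of the pluripotency genes in the result was not tested. In these bulk samples, fewer cells of a type and less RNA per cell cannot be told apart.

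Rara (chr11:98937696-98974942, plus strand), the broadly expressed receptor, moved least with RA among the RAR genes in WT but not in DKO. Its serum/LIF counts were 2757, 3047 and 2939 in WT and 2628, 2345 and 2627 in DKO. After RA they were 3901, 3971 and 3993 in WT and 5084, 5066 and 5018 in DKO. DKO was therefore below WT before RA and above it after RA, in every library. The genotype effect turned from −0.20 ± 0.05 (adjusted p = 0.00214, limma) to 0.35 ± 0.05 (adjusted p = 2.31e-06), and its interaction of 0.56 ± 0.07 passed (adjusted p = 1.04e-06). The rise with RA was 1.36-fold in WT (0.44 ± 0.05) and 2.00-fold in DKO (1.00 ± 0.05). With equal library totals, the WT value was 0.70, still below the DKO value.

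To compare the receptors with each other, levels were divided by the length of the longest GENCODE transcript. On this scale, normalized counts per kilobase, Rarg made up 72.2% ± 1.15 (SD, n = 3) of the summed RAR level in WT serum/LIF cells, Rara 27.6% ± 1.12 and Rarb 0.179% ± 0.06. After RA the WT shares were 49.2% ± 0.63 for Rara, 34.2% ± 1.30 for Rarb and 16.6% ± 0.67 for Rarg. In DKO, Rarg held 69.3% ± 1.41 before and 26.3% ± 0.39 after RA, and Rara 30.3% ± 1.47 and 42.9% ± 0.96. So the leading RAR changed from Rarg to Rara in both genotypes, with Rarb in the middle place in both RA groups. With the union of exons as length, Rarb (26.1%) and Rarg (26.2%) did not differ beyond their spread in DKO after RA. The summed RAR level per kilobase fell short of its serum/LIF value in WT, at 2374 ± 36.5 after RA against 3122 ± 44.2. In DKO it was 3482 ± 59.5 after RA against 2468 ± 92.1, so the order of the genotypes differed between the cultures. No group's range of libraries overlapped that of the other genotype in the same culture.

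**Figure D2:**
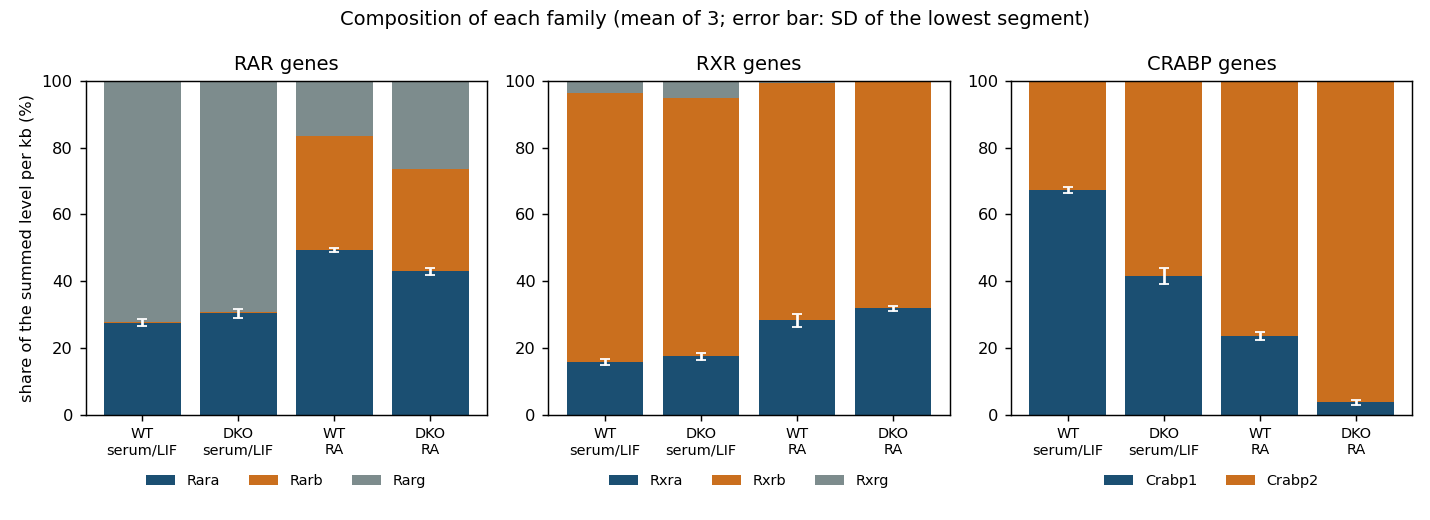
Share of each gene in the summed level per kilobase of its family (y axis, percent) in the 4 groups (x axis); segments are means of 3 libraries and the error bar is the SD of the lowest segment. Rarg gives way to Rara and Rarb after RA, and Crabp1 falls from 67.3% of the CRABP level in WT serum/LIF to 3.65% in DKO after RA.

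The RXR genes encode the shared partners of the RARs: Rxra and Rxrb rose with RA and the scarce Rxrg fell. Rxra (chr2:27677201-27763319, plus strand) read 667, 724 and 672 in WT and 768, 662 and 710 in DKO cells in serum/LIF. After RA it read 1693, 1682 and 1825 in WT and 1892, 1836 and 1736 in DKO. The genotypes overlapped in both cultures, and all RA libraries lay above all serum/LIF libraries. Rxra rose 2.52-fold in WT (1.33 ± 0.07) and 2.55-fold in DKO (1.35 ± 0.07), and neither the genotype effects (0.05 ± 0.07, adjusted p = 0.605, and 0.07 ± 0.07, adjusted p = 0.417, limma) nor the interaction (0.02 ± 0.10, adjusted p = 0.895) passed.

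Rxrb (chr17:34031812-34038403, plus strand) was the most abundant RXR gene per kilobase in every group, at 68.1% to 80.8% of the RXR sum by group mean. Its counts were 1765, 1887 and 2022 in WT and 1690, 1555 and 1839 in DKO cells in serum/LIF, and 2435, 2396 and 2210 in WT and 2129, 2054 and 2073 in DKO after RA. The genotypes overlapped in serum/LIF and did not after RA, where DKO was 1.13-fold lower. Its rise with RA was 1.24-fold in WT (0.31 ± 0.06, adjusted p = 6.86e-05, limma) and 1.23-fold in DKO (0.30 ± 0.06, adjusted p = 0.000108). With equal library totals these 2 values were 0.57 and 0.54. The genotype effect after RA passed narrowly (−0.17 ± 0.06, adjusted p = 0.0304). It was lost without WT RA replicate 1 (adjusted p = 0.122), WT RA replicate 2 (0.0831), DKO RA replicate 2 (0.0888) or DKO RA replicate 3 (0.0781). Limma without the trend and robust settings also lost it (adjusted p = 0.0919). The effect in serum/LIF had the same size (−0.16 ± 0.06) and just missed the threshold (adjusted p = 0.0507). It passed without WT serum/LIF replicate 1 (0.0206), DKO serum/LIF replicate 3 (0.0110), WT RA replicate 2 (0.0468) or WT RA replicate 3 (0.0411). With a pseudocount of 10 it passed too (adjusted p = 0.0465, limma).

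Rxrg (chr1:167598362-167639623, plus strand) was the scarcest RXR gene, and its level after RA was close to 0. In serum/LIF its counts were 64.9, 63.4 and 65.5 in WT and 116, 66.9 and 83.4 in DKO. After RA they were 21.6, 9.03 and 12.6 in WT, and 5.69, 0 and 3.58 in DKO. The groups after RA did not overlap, although they rest on 47 reads in WT and 10 in DKO, and DKO RA replicate 2 had none. The mean was 4.66-fold lower in DKO after RA. The ratio of reads after scaling was 4.76, with an exact 95% interval of 2.37 to 10.6 for counting error only.

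On the log2(value + 1) scale the genotype effect on Rxrg after RA was −2.22 ± 0.52 (adjusted p = 0.00139, limma). Without DKO RA replicate 2 it was −1.39 (adjusted p = 0.00965), and with a pseudocount of 10 it was −0.89 (adjusted p = 0.00433). In serum/LIF all DKO libraries were above all WT libraries, but the effect did not pass (0.42 ± 0.52, adjusted p = 0.585). The fall with RA was −2.17 ± 0.52 in WT (adjusted p = 0.000581) and −4.80 ± 0.52 in DKO (adjusted p = 1.14e-08), the latter −2.91 with a pseudocount of 10. Rxrg made up 3.44% ± 0.20 of the RXR level per kilobase in WT serum/LIF cells and 0.542% ± 0.23 after RA, and 5.02% ± 1.22 and 0.124% ± 0.11 in DKO. Its interaction of −2.63 ± 0.74 passed (adjusted p = 0.00853, limma). It was −1.26 with a pseudocount of 10 and missed the threshold in limma without the trend and robust settings (adjusted p = 0.0526).

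The CRABP genes, which encode small carriers of retinoic acid in the cytoplasm, differed in opposite directions between the genotypes after RA. Crabp2 (chr3:87948693-87953372, plus strand), whose product hands retinoic acid to RAR in the nucleus, read 526, 552 and 619 in WT and 624, 629 and 579 in DKO cells in serum/LIF. After RA it read 11409, 11539 and 10794 in WT and 14632, 14708 and 14354 in DKO. The genotypes overlapped before RA and were separate after it. Crabp2 rose 19.9-fold in WT (4.31 ± 0.05, adjusted p = 6.80e-27, limma) and 23.9-fold in DKO (4.57 ± 0.05). DKO was 1.29 times WT after RA (0.37 ± 0.05, adjusted p = 5.42e-06), where 83.6% of all genes tested had a lower value. In serum/LIF the effect did not pass (0.11 ± 0.05, adjusted p = 0.119), although it did without WT serum/LIF replicate 3 (0.18, adjusted p = 0.0116). The interaction was 0.26 ± 0.08 (adjusted p = 0.0118) and missed the threshold in limma without the trend and robust settings (adjusted p = 0.0561).

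Crabp1 (chr9:54764748-54773110, plus strand), whose product is known for holding retinoic acid in the cytoplasm, was the gene with the largest loss in DKO. Its counts in serum/LIF were 964, 995 and 1047 in WT and 363, 359 and 397 in DKO. After RA they were 3067, 3235 and 2674 in WT and 449, 575 and 404 in DKO. Every DKO library, with or without RA, was below every WT library. DKO was 2.69-fold lower in serum/LIF (−1.42 ± 0.10, adjusted p = 5.45e-11, limma) and 6.29-fold lower after RA (−2.66 ± 0.10, adjusted p = 8.84e-16). Of all genes tested, 2.7% had a lower value in serum/LIF and 1.05% after RA. Crabp1 rose 2.99-fold with RA in WT (1.57 ± 0.10) and 1.28-fold in DKO (0.34 ± 0.10, adjusted p = 0.00353). Without DKO RA replicate 2, which was the highest of the 3, the DKO rise was 0.19 and did not pass (adjusted p = 0.0539), and with equal library totals it was 0.57. Its interaction was −1.24 ± 0.14 (adjusted p = 2.98e-07).

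Per kilobase, Crabp1 made up 67.3% ± 0.92 (SD, n = 3) of the summed CRABP level in WT and 41.5% ± 2.43 in DKO cells in serum/LIF. After RA its share was 23.6% ± 1.13 in WT and 3.65% ± 0.62 in DKO. The CRABP sum itself was 1857 ± 104 in WT and 1121 ± 4.0 in DKO before RA, and 15812 ± 785 and 16237 ± 299 after RA. With the union of exons as length, Crabp1 held 50.2% in DKO serum/LIF cells, and its order with Crabp2 there then turned.

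Markers of other cell types also moved with genotype. After RA, where 42.7% of all genes tested were called, 2 of 10 genes of neural progenitors were higher and 8 lower in DKO. Their summed levels were 11717 to 11935 against 15014 to 15438 in WT. Of 9 genes of neurons, 1 was higher and 8 were lower after RA, with 3523 to 3797 against 6819 to 7714. Of 9 endoderm genes, 6 were higher in DKO and 0 lower after RA, with 22530 to 22728 against 16295 to 17666. Of 8 fibroblast genes 6 were higher and 0 lower after RA, with 84892 to 87803 against 66596 to 67869, and in serum/LIF 7 were higher and 0 lower, with 38457 to 40251 against 16652 to 17552. Before RA, where 33.2% of all genes tested were called, 5 neural progenitor genes were higher in DKO and 1 lower. Their summed levels were 7696 to 8010 against 4801 to 4855, the opposite of their order after RA. In the same culture 5 endoderm genes were higher and 0 lower, with 8123 to 8339 against 4612 to 4822, and 4 neuron genes were higher and 2 lower, with 21454 to 21911 against 20349 to 22154. None of these genes was at 0 in any group. Of 7 mesoderm genes tested, 2 were higher and 1 lower in DKO after RA, and 3 higher and 1 lower in serum/LIF. The summed levels of the 8 mesoderm genes listed were 860 to 1030 in DKO against 1539 to 1781 in WT after RA. In serum/LIF they were 627 to 712 against 371 to 374. Of 7 trophoblast genes tested, 2 were higher and 1 lower after RA, and 3 higher and 0 lower in serum/LIF. Their summed levels were 13099 to 13812 in DKO against 12840 to 13722 in WT after RA, and 5336 to 6473 against 4362 to 4523 in serum/LIF. The mesoderm gene Mesp1 was at 0 in WT after RA. The part of all these marker genes in the differences of Crabp1, Crabp2, Rara, Rarg and Rxrg was not tested.

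Between the genotypes as a whole, 3 of the 8 genes passed the test in serum/LIF, all lower in DKO (Rara, Rarg and Crabp1), where 33.2% of all genes were called (17.8% higher, 15.4% lower). After RA 6 of the 8 passed, 3 higher (Rara, Rarg, Crabp2) and 3 lower (Rxrb, Rxrg, Crabp1), where 42.7% of all genes were called (22.0% higher, 20.7% lower). The interaction passed for 5 of the 8, namely Rara, Rarg, Rxrg, Crabp1 and Crabp2, against 30.8% of all genes (14.8% higher, 16.0% lower). Rara and Rarg changed sign between the cultures and Crabp1 kept it.

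Ordered by level per kilobase, the 8 genes in WT serum/LIF cells ran from Rarg (2255) through Crabp1 (1249), Rara (861), Rxrb (720), Crabp2 (608), Rxra (140) and Rxrg (30.6) down to Rarb (5.58), with no overlap between the libraries of neighbours. In DKO serum/LIF cells the order was Rarg (1711), Rara (749), Crabp2 (656), Rxrb (645), Crabp1 (465), Rxra (145), Rxrg (42.0) and Rarb (8.09), and Crabp2 and Rxrb overlapped. After RA in WT it was Crabp2 (12081), Crabp1 (3731), Rara (1169), Rxrb (893), Rarb (811), Rarg (394), Rxra (353) and Rxrg (6.83), with Rxrb and Rarb overlapping. After RA in DKO it was Crabp2 (15644), Rara (1494), Rarb (1071), Rarg (917), Rxrb (794), Crabp1 (593), Rxra (371) and Rxrg (1.46). By the longest transcript, Crabp1 thus stood next to the top after RA in WT and below Rxrb in DKO. The order depends on the length used. The union of exons is 3973 bases for Rxrb in place of 2627, and 802 for Crabp1 by either length. With that union, Crabp1 lies above Rxrb by group mean in DKO in both cultures. Rarg then lies below Rxra in WT after RA.

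**Figure D3:**
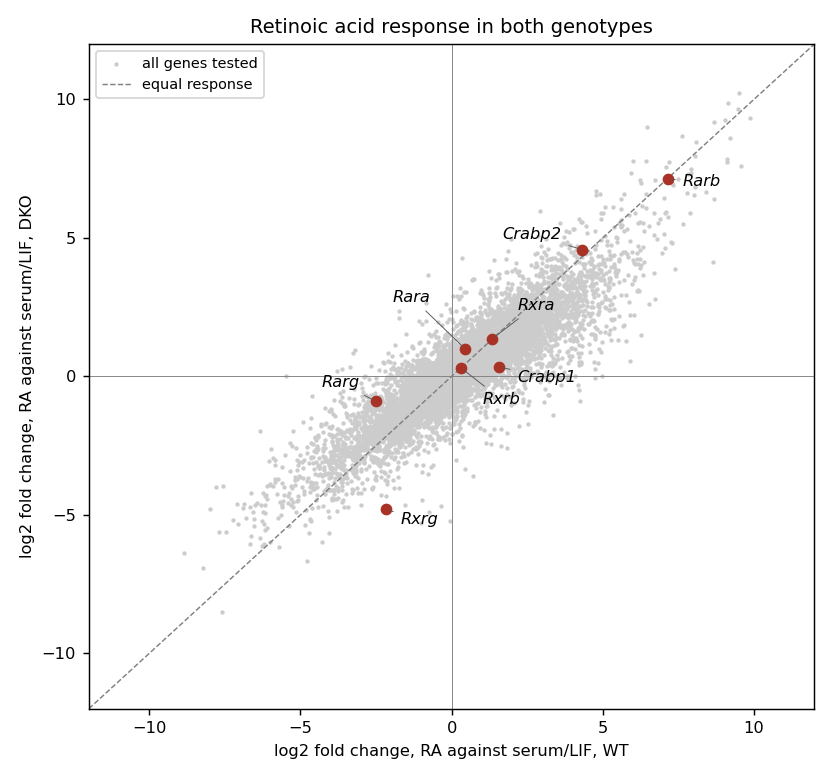
log2 fold change of RA against serum/LIF in WT (x axis) and DKO (y axis) for all 15750 genes tested (grey) and the 8 genes (red); the dashed line marks an equal response. Rarb, Rxra, Rxrb and Crabp2 lie close to the line, Rarg and Rara above it, and Crabp1 and Rxrg below it.

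The other genes of the pathway were taken from lists chosen by function. Of 12 known direct targets of RAR, all 12 rose with RA in WT and all 12 in DKO, where 41.4% and 40.2% of all genes were called higher. Their median log2 fold change was 5.10 and 5.68, against 0.04 over all genes in both. Stra8, a gene of meiotic entry that is induced by retinoic acid, rose 7.85-fold in WT (2.97 ± 0.04) and 26-fold in DKO (4.70 ± 0.04), with an interaction of 1.73 ± 0.06 (adjusted p = 1.02e-15, limma). Stra8 was 2.18-fold lower in DKO cells in serum/LIF and 1.52-fold higher after RA, the same turn of sign as Rara and Rarg. Cdx1, a homeobox gene of posterior patterning, was 2.16-fold higher in DKO after RA (1.11 ± 0.20, adjusted p = 9.19e-05). Between genotypes, 3 of the 12 were higher and 5 lower in serum/LIF, where 33.2% of all genes were called. After RA, 2 were higher and 3 lower, where 42.7% were called.

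Retinoid metabolism and transport genes rose widely with RA: 11 of 13 tested were higher and 2 lower in WT, and 9 higher and 1 lower in DKO. The shares over all genes were 41.4% higher and 39.2% lower in WT, and 40.2% and 38.2% in DKO. Cyp26a1 rose 273-fold in WT and 359-fold in DKO, and its genotype effect after RA did not pass (0.08 ± 0.09, adjusted p = 0.544, limma). In serum/LIF it was lower in DKO (−0.32 ± 0.09, adjusted p = 0.0128, limma), although the libraries of the genotypes overlapped. Its interaction passed (0.39 ± 0.13, adjusted p = 0.0292, limma). Dhrs3, a reductase that returns retinal to retinol, rose 345-fold in WT and 102-fold in DKO (interaction −1.75 ± 0.21, adjusted p = 2.75e-06). Stra6, the membrane receptor for retinol carried in blood, had a mean of 7670 in WT and 1583 in DKO after RA, a 4.84-fold difference (−2.28 ± 0.13, adjusted p = 1.17e-12). Between genotypes, 5 of the 13 were higher and 2 lower in DKO before RA, where 33.2% of all genes were called. After RA, 2 were higher and 4 lower, where 42.7% were called. Aldh1a2, which makes retinoic acid from retinal, was 1.95-fold higher in DKO cells in serum/LIF (0.94 ± 0.18, adjusted p = 0.000172) and 1.47-fold lower after RA (−0.56 ± 0.18, adjusted p = 0.0123), with an interaction of −1.50 ± 0.25 (adjusted p = 5.30e-05).

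Of 13 relatives of the CRABPs among the intracellular lipid-binding proteins, 9 were in the table and 5 passed the filter. After RA, where 42.7% of all genes were called, 2 of these 5 were higher in DKO and 3 lower. Fabp7, a fatty acid carrier of neural progenitors, had a mean of 71.2 in WT and 310 in DKO cells in serum/LIF, and of 70.0 and 7.38 after RA, so that its interaction was −5.18 ± 0.37 (adjusted p = 1.43e-10, limma). Fabp5, a carrier that also binds retinoic acid, was 2.01-fold lower in DKO after RA (−1.0 ± 0.07). Fabp3, the carrier known from heart muscle, was 1.93-fold higher (0.95 ± 0.05).

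Corepressors and coactivators of the receptors moved in both directions between the genotypes. Of 10 corepressor genes, 2 were higher and 3 lower in DKO cells in serum/LIF, where 33.2% of all genes were called, and 2 higher and 2 lower after RA, where 42.7% were. Ncor1, the nuclear receptor corepressor, was 1.17-fold higher in DKO after RA (0.23 ± 0.05, adjusted p = 0.000630, limma), and Hdac3, the deacetylase in the same complex, was 1.18-fold lower (−0.24 ± 0.05, adjusted p = 0.000206). Nrip1, a corepressor that is itself induced by retinoic acid, rose 8.43-fold in WT and 7.26-fold in DKO. Of 10 coactivator genes, 2 were higher and 2 lower in DKO cells in serum/LIF, and 5 higher and 2 lower after RA, against the same shares of all genes. With RA itself, Ncoa6 rose 2.67-fold and Kat2b fell 2.46-fold in WT. Ncoa2, a p160 coactivator, was 1.29-fold higher after RA (0.38 ± 0.06), and Kat2b, an acetyltransferase, was lower in both cultures (−0.49 ± 0.05 in serum/LIF and −0.31 ± 0.05 after RA).

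Other receptors that pair with RXR or bind direct repeats could share partners or sites with the RARs. Of 10 other RXR partners tested, 7 rose and 1 fell with RA in WT, and in DKO 7 rose and 2 fell. Over all genes, 41.4% rose and 39.2% fell in WT, and 40.2% rose and 38.2% fell in DKO. Between the genotypes in serum/LIF, the smallest adjusted p among the 10 was that of Vdr, the vitamin D receptor (−1.14 ± 0.47, adjusted p = 0.0622, limma). Thra, a thyroid hormone receptor, rose 2.24-fold in WT and 2.94-fold in DKO and was 1.40-fold higher in DKO after RA (0.49 ± 0.09, adjusted p = 6.45e-05). Of 7 receptors of direct-repeat elements, 6 rose with RA in WT and 7 in DKO, where 41.4% and 40.2% of all genes rose. Nr2f1 and Nr2f2, the COUP-TF genes, rose most, 225-fold and 230-fold in WT and 154-fold and 99.5-fold in DKO. Hnf4a, a receptor of liver and endoderm, had means of 56.6 in WT and 5.32 in DKO cells in serum/LIF (−3.72 ± 0.63, adjusted p = 0.000140).

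The nearest genes on either side of the members are known from the annotation. Itgb7, an integrin gene 3002 bases from Rarg on the same strand, had the same directions as Rarg: −1.05 ± 0.14 for DKO against WT in serum/LIF, 0.53 after RA, and an interaction of 1.58 ± 0.20 (adjusted p = 1.54e-06, limma). Mfsd5, on the other side of Rarg, passed neither genotype comparison. Lmx1a, a homeobox gene of the midbrain floor and 49934 bases after Rxrg, was lower in DKO after RA like Rxrg (−2.87 ± 0.49), but rose with RA in WT (2.95) where Rxrg fell. Mgst3, before Rxrg, was higher in DKO after RA (0.32 ± 0.10), the opposite of Rxrg. Col5a1, after Rxra, was higher in DKO cells in serum/LIF (1.11 ± 0.06), where Rxra did not pass. Gm13421 before Rxra, Col11a2 after Rxrb and Thrb after Rarb passed neither genotype comparison. Ireb2, after Crabp1, was lower in DKO after RA (−0.52), and Wdr61, before it, was higher (0.23). In serum/LIF both were lower in DKO (−0.21 and −0.19), as Crabp1 was. Cdc6, 13753 bases before Rara, was higher in DKO after RA (0.34) as Rara was, but did not pass in serum/LIF (0.03). Gjd3, on the other side of Rara, passed neither genotype comparison. Nes, the nestin gene 17720 bases after Crabp2, was higher in DKO after RA (0.39) as Crabp2 was, and also in serum/LIF (0.76), while Isg20l2, 8006 bases before Crabp2, was lower in both (−0.29 after RA and −0.20 in serum/LIF). Slc39a7, a zinc transporter gene 121 bases from Rxrb on the opposite strand, was lower in DKO after RA (−0.38).

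Genes with the pattern most like that of each member were ranked by the root mean square difference between the log2 means of the 4 groups, each gene centred on its own mean, among 12355 candidates. For Rarg these were Adamts14 (0.11) and Ptpn3 (0.17), for Rara Tbkbp1 (0.015) and Mocs1 (0.031), and for Rarb Nr2f1 (0.26) and Gata5 (0.27). For Rxra they were Nlgn2 (0.011) and Galc (0.013), for Rxrb Ccdc85c (0.011) and Tbrg1 (0.013), and for Rxrg Mycn (0.33) and Oas2 (0.39). For Crabp1 they were Scd3 (0.20) and Ldoc1 (0.24), and for Crabp2 Rec8 (0.086), a meiotic cohesin gene, and Shd (0.13). Adamts14, a protease gene, had means of 476 in WT and 440 in DKO cells in serum/LIF, and of 98.7 and 227 after RA. Scd3, a fatty acid desaturase gene, had 91.9 and 43.6 in serum/LIF and 253 and 51.3 after RA. Mycn, a MYC family gene, had 6879 and 6629 in serum/LIF and 1103 and 407 after RA. The likeness is in the shape over 4 group means, which share library preparation and scaling.

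For the 8 genes and the 4 comparisons, the authors' deposited table held 31 of 32 results with the same call and sign as the limma fit, and the exception was Rarb between genotypes after RA.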

How the data were processed

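Per the submitters' processing notes, the reads were processed with Trim Galore 0.6.10, STAR 2.7.11b, featureCounts (Subread 2.0.6) and DESeq2 1.44.0 on mm10. The authors deposited a signal per gene and library: whole read counts divided by a size factor of the library (within 0.01 of a whole read). Per the file headers, the same table holds the authors' log2 fold changes, p-values and, as a score, the Wald statistic. The labels name the molecule genomic DNA, while the protocol describes total RNA.

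Values were transformed as log2(value + 1), and genes with 10 or more in at least 3 of 12 libraries were tested (15750; 2151 fell below). limma 3.58.1 in R 4.3.3 (trend and robust settings, 1 mean per group, no block) gave fold changes, with Benjamini-Hochberg adjustment over all genes tested and a threshold of 0.05. edgeR 4.0.16 and DESeq2 1.42.0 on the recovered reads, other pseudocounts, scalings and filters, and leaving out each library were alternatives. The limma fit was tested on simulated counts with known changes in the DKO serum/LIF group only. The interaction, the count models and the other steps were not tested in this way. Same-numbered replicates did not pair: of 18 same-number pairs, 0 had deviations correlated over 0.1. Gene lengths come from GENCODE. Named genes were Rlf and Zfp292, the 8 genes, up to 3 called genes with the smallest adjusted p per list and comparison, nearest neighbours, and the 2 most similar genes each. The genes and lists were chosen with earlier results of these data known. Some genes of the lists are not reported here by name.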

Additional observations from a re-analysis of the deposited data

Results flagged for a closer look

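The response to retinoic acid differed between the genotypes, by the interaction term of the limma fit, for 5 of the 8 genes, where 30.8% of all genes tested passed that test. Rarg (1.62) and Rara (0.56) were below WT in DKO in serum/LIF and above it after RA. Crabp2 (0.26) had a larger rise in DKO. Crabp1 (−1.24) had a smaller rise in DKO, and Rxrg (−2.63) a deeper fall, the latter on 10 reads over the 3 DKO libraries after RA.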

How the results depend on the processing

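For the 8 genes and 5 contrasts (40 results), 840 of 872 values under alternatives kept direction and side of the threshold, 8 lost the call, 10 gained it and 14 changed sign, and 28 results kept both under every alternative run. The 872 include fits that left out a library not in the genotype or RA comparison at hand. Such a fit cannot change the fold change of that comparison, only its call. Where limma ran without trend and robust settings, 3 of the 8 genes in place of 5 passed the interaction test; the cause was not tested. All changes of sign were in values that did not pass. The interaction of Rarb was 0.0842 with a pseudocount of 10 and ranged from −0.382 to 0.365 over left-out libraries. That of Rxra was −0.00578 with equal library totals and ranged from −0.0319 to 0.0754, and that of Rxrb ranged from −0.0700 to 0.0507. Rxra between genotypes in serum/LIF ranged from −0.00381 to 0.103. The share of Rarg in the RAR level moved with the length used: with the union of exons it was, in serum/LIF, 70.0% in WT and 67.0% in DKO. With the length of the listed transcript, chosen after seeing the data, it was 65.5% and 62.3% in serum/LIF and 14.05% and 22.7% after RA. The replicate block kept the calls at 3 of 8 in serum/LIF, 6 after RA, 8 and 8 for RA against serum/LIF and 5 for the interaction, and it changed no call of the 8 genes. Depth limits Rarb in serum/LIF and Rxrg after RA.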
